A study of Mus musculus with 6 samples.

Results

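The A-kinase anchoring proteins (AKAPs) and the subunits of protein kinase A (PKA) were followed here through 10 genes: the anchoring proteins Akap1, Akap5, Akap8, Akap9, Akap12 and Akap13, the catalytic subunit Prkaca and the regulatory subunits Prkar1a, Prkar2a and Prkar2b. Every array probe annotated to one of these symbols was taken, which gave 30 probes of the 45281 on the array; the 10 genes stand among 19057 with a probe of 1 symbol. The genes were chosen by measured values of the same ki against wt contrast, Akap5 for its large difference and the others to ask whether that difference is shared. RNA came from lung fibroblasts of p38ki/ki mice (ki, 3 samples) and of p38+/+ mice (wt, 3 samples). Each sample was hybridised to an Illumina bead array, a glass array on which a probe's brightness reports the abundance of its transcript. The number of mice behind each sample was not established. The mice of both genotypes were 10 weeks old, and the cells of both were at passage 1 in DMEM/F12 medium with 15% FCS. The labels name neither the p38 gene nor the sequence change of the knock-in allele, and they do not give the sex of the mice.

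PKA is a holoenzyme in which a dimer of regulatory subunits holds catalytic subunits inactive until cyclic AMP (cAMP) binds the regulatory subunits and frees them. Anchoring proteins bind the regulatory dimer and fix the enzyme at a membrane, organelle or cytoskeletal site, often beside phosphatases, phosphodiesterases and other kinases, so that a cAMP signal acts locally. In lung fibroblasts, cAMP formed downstream of Gs-coupled prostaglandin receptors is known to restrain proliferation and collagen production.

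Akap5 was the member that stood apart: its level was 5.28-fold higher in ki than in wt fibroblasts. No other member reached that size in either direction. The 8 other members that could be tested differed by between -0.29 and 0.53 on the log2 scale, where 1 unit is a doubling. Among them Prkar2b, the type II beta regulatory subunit, was lower in ki by 0.29, and the remaining 7 did not pass the test. Of the 30 member probes, 15 passed the filter for testing, which asked for detection on 3 or more arrays (detection p under 0.05), 2 were detected on 1 or 2 arrays and 13 on no array. Prkar2a had no tested probe.

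The arrays were of similar breadth. Between 38.87% and 40.92% of probes were detected on each of the 6, and the mean signal before normalisation lay between 519 and 695 on ki arrays and between 712 and 847 on wt arrays. Of the 10412 genes tested, 16.2% passed an adjusted p of 0.05 (limma), 8.71% higher and 7.5% lower in ki; the 1688 calls numbered 1011, 1019 and 1017 without wt array 1, 2 and 3. All 12 fibroblast markers were detected; 5 of them, among them Col1a2 (-1.22) and Thy1 (-0.60), were lower in ki and none was higher. Markers of other cell types moved with genotype too. All 9 mesothelial markers tested were higher in ki, by between 1.82 and 3.12. Those with the smallest p were Upk3b (2.90), Upk1b (2.88) and Krt8 (2.75). The summed linear level of these 9 was 11290, 11100 and 10530 in ki and 1768, 1657 and 1533 in wt. Wt1 and Muc16 had no probe under their symbols, and Calb2 and Rspo1 were not detected widely enough to test. Of 6 epithelial markers 3 were higher in ki (Cldn4, Cldn3 and Cdh1), and Epcam and the surfactant genes Sftpc, Sftpb and Sftpa1 were not detected widely enough to test. Of 9 neutrophil markers 8 were lower in ki, among them S100a9 (-3.93), and 4, Mpo and Ctsg among them, were detected on no ki array. Of 11 macrophage markers 1 was higher and 3 were lower, of 7 smooth muscle markers 2 were higher and 1 lower, and of 6 endothelial markers 0 passed (limma). At an unadjusted p under 0.05, 0 endothelial markers were higher and 4 lower, and the share of all genes at that cut was not counted. The Y-linked Eif2s3y (1.62) and Kdm5d (1.08) were also higher in ki, and the X-linked Xist differed by -0.61 without overlap of the arrays (adjusted p = 0.069). Xist and Eif2s3y were each detected on all 6 arrays.

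Akap5 encodes a membrane-bound scaffold, best known from neurons, that holds PKA, protein kinase C and the phosphatase calcineurin at receptors and channels. The gene lies at chr12:76324617-76334517 on GRCm38.p6, and the array has 1 probe for it, for which the annotation used gives no transcript record. The probe was detected on all 6 arrays. Its normalised log2 intensity was 9.87, 9.76 and 9.79 in ki, against 7.35, 7.50 and 7.36 in wt. The 3 ki arrays lay close together, as did the 3 wt arrays, and the groups were far from overlapping. The means were 9.81 ± 0.054 in ki and 7.41 ± 0.083 in wt (SD, n = 3 each), a difference of 2.40 with a standard error of 0.079. Before normalisation the deposited signal was 923, 622 and 872 in ki and 178, 169 and 149 in wt, so the separation was present in the signals as deposited. Akap5 was chosen for this difference, and it is therefore described without a test. By size, 11 of the 10412 genes (0.106%) had an increase at least as large, Akap5 included. In RNA from whole cultures, more cells of a type and more RNA per cell cannot be told apart. The mesothelial, epithelial and neutrophil markers above move with genotype in the same arrays. So do some fibroblast, smooth muscle and macrophage markers and the Y-linked genes. The part of any of these in the Akap5 difference was not tested.

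**Figure D1:**
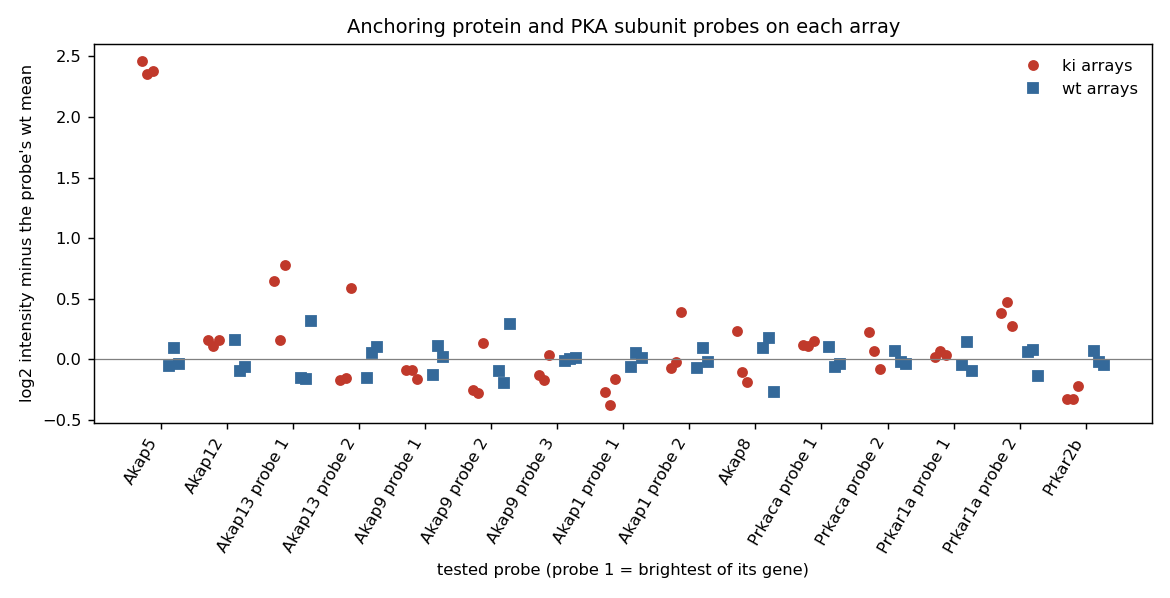
Normalised log2 intensity of each tested member probe on each array, drawn relative to that probe's mean over the wt arrays (grey line at 0), with ki arrays as red circles and wt arrays as blue squares. The Akap5 points of ki lie more than 2 log2 units above those of wt, and no other probe shows a gap of that size.

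Promoter sequences are shown for the member with the large increase, for the member that passed the test, and for the one with a cAMP response element, so that the stretches before their start sites can be compared. Each is the 250 bases before a RefSeq transcript start on GRCm38.p6, printed 5′ to 3′ on the strand of the gene: Akap5 at chr12:76324641-76324890 (+), Prkar2b at chr12:32061278-32061527 (-) and Prkar1a at chr11:109650699-109650948 (+). Capitals mark every match, on either strand, to TGACGTCA (cAMP response element), TGACG (its core, which also lies within the full element), TGANTCA (AP-1 site), the CCAAT box as spelled, or the GC box with letters GGGCGG.
Akap5: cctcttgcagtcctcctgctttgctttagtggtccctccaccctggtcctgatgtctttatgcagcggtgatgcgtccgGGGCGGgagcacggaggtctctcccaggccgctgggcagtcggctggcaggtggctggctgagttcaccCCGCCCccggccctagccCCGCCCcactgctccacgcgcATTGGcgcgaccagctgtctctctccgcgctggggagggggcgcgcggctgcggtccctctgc
Prkar2b: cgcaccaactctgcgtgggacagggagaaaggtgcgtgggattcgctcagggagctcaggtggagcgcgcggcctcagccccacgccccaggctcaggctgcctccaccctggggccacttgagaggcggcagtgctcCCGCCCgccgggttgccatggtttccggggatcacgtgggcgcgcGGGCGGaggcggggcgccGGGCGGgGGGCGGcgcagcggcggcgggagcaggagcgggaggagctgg
Prkar1a: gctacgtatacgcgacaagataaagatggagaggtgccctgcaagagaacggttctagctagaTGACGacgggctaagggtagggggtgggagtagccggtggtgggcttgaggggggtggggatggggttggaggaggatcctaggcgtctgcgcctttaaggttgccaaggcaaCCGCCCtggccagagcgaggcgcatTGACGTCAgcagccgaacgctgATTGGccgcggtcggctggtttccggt
The Akap5 window held 3 GC boxes and 1 CCAAT box, and no match to either cAMP element or to the AP-1 site. The Prkar2b window shown held 4 GC boxes alone, and the window at another Prkar2b start held no match. Prkar1a has windows at other starts too. The Akap5, Prkar2b and Prkar1a windows shown lie inside the annotated spans of their genes. The Prkar1a window held 1 full cAMP response element, 1 GC box and 1 CCAAT box, and 3 cores, of which those on the 2 strands of the full element are counted apart.

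Start sites were available for 9 of the 10 members, in 18 windows, and not for Akap12. The full cAMP response element was found in 1 of the 18 windows, that of Prkar1a, and in 1.55% of the 32851 windows of all genes. The core was in 4 member windows (Prkaca and Prkar1a) and in 17.8% of all windows. GC boxes were in 12 member windows and in 32.7% of all windows, CCAAT boxes in 5 and in 33.8%, and the AP-1 site in 1 (Akap1) and in 6.75%. The windows of 1 gene can overlap, so these counts are not independent of each other, and a match describes letters, not binding.

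The other anchoring proteins came next in the question of whether the Akap5 difference was shared. Akap12 encodes a large scaffold at the plasma membrane and cortical cytoskeleton that binds PKA and protein kinase C. Its detected probe read 12.05, 11.99 and 12.04 in ki and 12.04, 11.79 and 11.82 in wt. The ki arrays fell within a narrow band that the highest wt array touched. The difference was 0.14 (standard error 0.091, 95% interval -0.074 to 0.36, adjusted p = 0.34), which did not pass; a second Akap12 probe was detected on no array.

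Akap13 encodes a scaffold that is also a guanine nucleotide exchange factor for the small GTPase RhoA. Its brightest probe read 9.18, 8.69 and 9.31 in ki and 8.38, 8.37 and 8.84 in wt. Ki array 2 was lower than wt array 3, so the groups overlapped, although the other ki arrays were above every wt array. The difference, 0.53 (standard error 0.20, 95% interval 0.053 to 1.01), was the largest of the tested members after Akap5. Its adjusted p of 0.128 did not pass. Without ki array 2 it was 0.72 and passed (adjusted p = 0.0493), and it also passed with an intensity-dependent, outlier-tolerant variance (adjusted p = 0.0366). The other tested Akap13 probe was detected on 3 arrays and differed by 0.09 (adjusted p over probes 0.82), and 2 further probes were detected on no array.

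Akap9 encodes a very large scaffold of the Golgi apparatus and the centrosome. Its brightest probe read 10.82, 10.82 and 10.75 in ki and 10.78, 11.01 and 10.93 in wt. Wt array 1 lay among the ki arrays, so the groups overlapped. The difference was -0.11 (standard error 0.087, 95% interval -0.32 to 0.096, adjusted p = 0.437). The remaining 2 tested Akap9 probes differed by -0.09 and -0.13, neither passing, and 2 more were not detected.

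Akap1 encodes the anchoring protein of the outer mitochondrial membrane. Its brightest probe read 8.48, 8.37 and 8.59 in ki and 8.69, 8.80 and 8.77 in wt. Every ki array was below every wt array. The difference of -0.27 (standard error 0.086, 95% interval -0.47 to -0.0655) had an adjusted p of 0.0826 and did not pass. The second tested Akap1 probe differed by 0.10 with overlapping arrays (adjusted p over probes 0.682), so the probes of this gene differed in sign. Of the other 5 Akap1 probes, 1 was detected on 1 array and 4 on none.

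Akap8 encodes a nuclear anchoring protein that associates with chromatin and the nuclear matrix. Its detected probe read 7.57, 7.24 and 7.16 in ki and 7.44, 7.52 and 7.07 in wt. The arrays of both groups were spread over the same range. The difference was -0.02 (standard error 0.158, adjusted p = 0.95), and its 95% interval, -0.39 to 0.36, leaves changes of moderate size undetermined.

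The catalytic subunit Prkaca, the kinase itself, read 11.54, 11.53 and 11.57 in ki and 11.52, 11.35 and 11.38 in wt on its brightest probe. Each ki array was above each wt array, by a hair in the case of wt array 1. The difference was 0.13 (standard error 0.077, 95% interval -0.058 to 0.31, adjusted p = 0.32), and the second Prkaca probe differed by 0.07 with overlapping arrays.

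Prkar1a encodes the type I alpha regulatory subunit, the widely expressed inhibitor of the catalytic subunit. Its brightest probe read 13.46, 13.51 and 13.48 in ki and 13.40, 13.58 and 13.35 in wt. The ki arrays lay between the lowest and highest wt arrays. The difference was 0.04 (standard error 0.087, 95% interval -0.17 to 0.25, adjusted p = 0.795). A dimmer probe, annotated to a different transcript record of Prkar1a, read 7.63, 7.73 and 7.53 in ki and 7.31, 7.33 and 7.12 in wt. On this probe every ki array was above every wt array, and the difference of 0.37 (standard error 0.095) passed over all probes (adjusted p = 0.0445). That call was made in 3 of 16 alternatives, with adjusted p between 0.023 and 0.473, and leaving out any 1 array ended it. The probes of Prkar1a therefore gave different calls.

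Prkar2b encodes the type II beta regulatory subunit; type II regulatory subunits are the usual partners of Akap5. Its brightest probe read 10.01, 10.01 and 10.12 in ki, against 10.40, 10.32 and 10.29 in wt. Each ki array was below each wt array. The means were 10.05 ± 0.064 in ki and 10.34 ± 0.060 in wt (SD, n = 3 each), 1.22-fold lower in ki. The difference was -0.29 (standard error 0.077, 95% interval -0.47 to -0.11), and its adjusted p of 0.0465 over genes was just inside the threshold. Over probes the adjusted p was 0.0509, which did not pass. The call was made in 7 of 18 alternatives, with adjusted p between 0.00728 and 0.259, and leaving out any 1 array ended it. The difference kept its sign in each alternative, between -0.53 and -0.24. The second Prkar2b probe was detected on 2 arrays and was not tested.

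Prkar2a encodes the type II alpha regulatory subunit. None of its 3 probes was detected on any array, with signals between -14.1 and 34.6 after the authors' background subtraction. The arrays therefore give no measurement of this subunit in either genotype, which is not evidence that the transcript is absent.

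**Figure D2:**
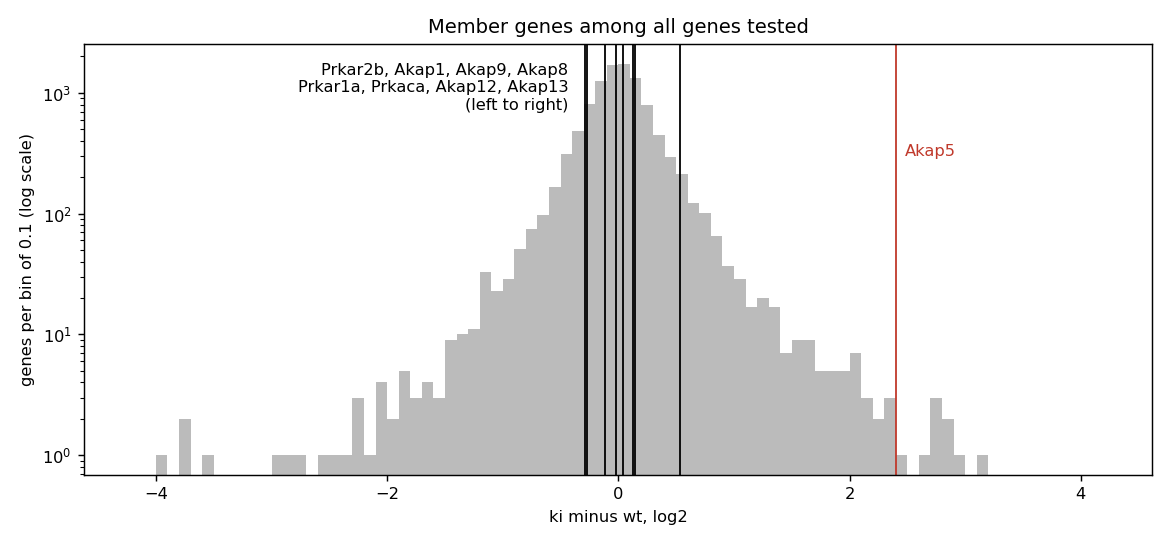
Histogram of the ki minus wt difference in log2 intensity over the 10412 genes tested (bins of 0.1, gene count on a log scale), with Akap5 as a red line and the 8 other tested members as black lines. The black lines stand in the body of the histogram, between -0.29 and 0.53, and Akap5 at 2.40 stands in its right tail.

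Counted together, the 8 other tested members gave 1 call (Prkar2b, lower in ki) and 0 calls higher in ki by limma, beside 16.2% of all genes called, 8.71% higher and 7.5% lower. At an unadjusted p under 0.05 there were 1 higher (Akap13) and 2 lower (Akap1 and Prkar2b). The share of all genes at that unadjusted cut was not counted, so these numbers have no background and are not read as a result. Their differences were above 0 in 4 and below 0 in 4, with a median of 0.011 beside 0.007 over all genes tested; scaling each array to its median over all probes moved the median of all genes by -0.22 and turned Akap12 (-0.14), Prkaca (-0.15) and Prkar1a (-0.27) below 0. Of all genes, 80.7% had a difference within the range that these members spanned. The arrays of ki and wt did not overlap in 3 of the 8 (Akap1, Prkaca and Prkar2b), where 38.4% of all genes showed no overlap. Over probes, 1 of 14 passed (that of Prkar1a), beside 14.2% of all probes, and 4 of 14 did not overlap, beside 35.5% of all probes. None of the 8 was increased to the extent of Akap5: the highest upper bound of their 95% intervals was 1.01, for Akap13.

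The genes with array patterns most like Akap5 were found by centring each gene on its mean log2 value and taking the root mean square difference from Akap5 over the 6 arrays. The 5 nearest were Wfdc2 (0.133), Gpm6a (0.154), Il18r1 (0.176), Cldn4 (0.177) and Fgr (0.182). Gpm6a was also on the mesothelial marker list and Cldn4 on the epithelial one. Wfdc2 read 11.28, 11.32 and 11.29 in ki and 8.93, 9.26 and 9.15 in wt. Gpm6a and Il18r1 were not detected on any wt array, so their wt values are at the background. The centred values were not scaled, so only genes with a difference of similar size can stand near Akap5. The other members, at 0.53 or below, could not be among the 5, and their absence adds nothing. For Prkar2b the 3 nearest were Adap1 (0.018), Pdzd11 (0.029) and Rnf11 (0.032), each lower in ki by between 0.25 and 0.32.

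**Figure D3:**
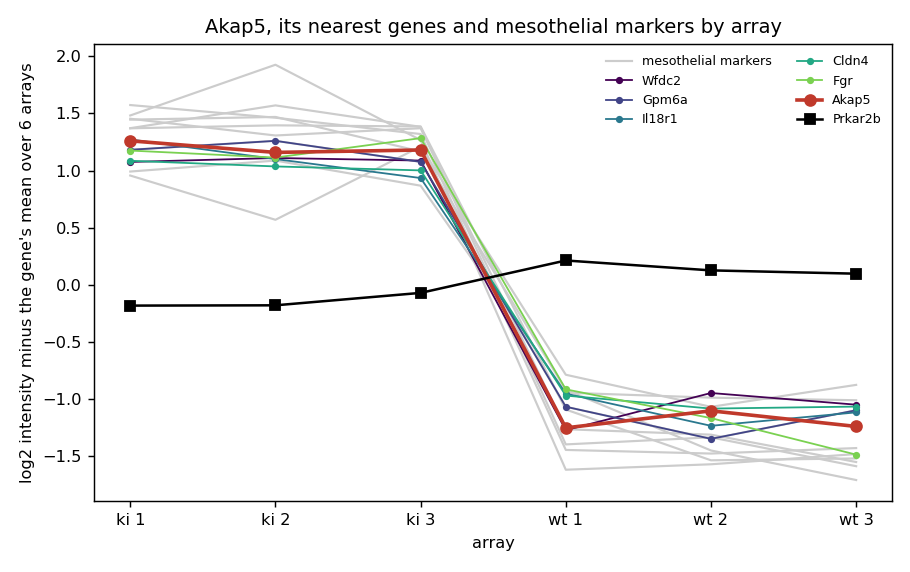
Log2 intensity of each gene minus its mean over the 6 arrays, by array, ki on the left and wt on the right, for Akap5 (red), its 5 nearest genes (thin coloured lines), the tested mesothelial markers (grey) and Prkar2b (black squares). Akap5, its nearest genes and the mesothelial markers are high on all 3 ki arrays and low on all 3 wt arrays, while Prkar2b moves slightly the other way.

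The rest of the cAMP pathway was read from 122 listed genes, of which 69 had a tested probe. Of these, 20 (29%) passed, 7 higher and 13 lower in ki, beside 16.2% of all genes. With median scaling over all probes there were 1 higher and 18 lower calls, with median scaling over detected probes 4 and 15, and with any 1 array left out 2 to 3 higher and 11 to 13 lower. Without wt array 1, or without wt array 2, 13 passed in all. The 6 genes that passed under every alternative (Adcy2, Crem, Pde10a, Pde1a, Pde4d and Per1) were each lower in ki; of the 7 higher ones, Wasf1 passed in 17 of 18 alternatives and Rab32, Ptgir, Pde4b and Prkca in 6 or 7. The median difference of the 69 was -0.10. Among the other PKA subunits and inhibitors, 1 of 5 passed: Prkar1b, the type I beta regulatory subunit, averaged 7.34 ± 0.092 in ki and 8.03 ± 0.18 in wt (SD, n = 3 each), a difference of -0.69 (standard error 0.11, adjusted p = 0.00752). The catalytic subunit gene Prkacb (0.10) and the PKA inhibitor genes Pkia (0.23), Pkib (0.21) and Pkig (0.03) did not pass.

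Among 17 other anchoring proteins, 3 were higher and 1 lower (23.5% passing, beside 16.2% of all genes), with a median of 0.055. Map2, a microtubule-associated protein that anchors PKA in dendrites, was higher by 1.13 (standard error 0.24, adjusted p = 0.0229), and was detected on all 3 ki arrays and on 2 wt arrays. Map2 passed in 10 of 17 alternatives. Wasf1, an actin regulator, was higher by 0.48 and Rab32, a GTPase that anchors PKA at mitochondria, by 0.32, which was -0.0030 with median scaling over all probes. Akap2 was lower by 0.37 (adjusted p = 0.0241) and passed in 10 of 18 alternatives. Its other tested probes differed by -0.16 and -0.26, neither passing over probes. The probe annotation lists Akap2 and Pakap apart, and they were counted apart here, whereas RefSeq holds them as 1 gene. Pakap differed by 0.12 with overlapping arrays (adjusted p = 0.624), so the direction of that gene is unsettled.

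Among genes that make or degrade cAMP, the calls were lower in ki except for Pde4b. The shares passing were 11.1% for cyclases and G protein alpha subunits, 44.4% for phosphodiesterases and 75% for receptors, beside 16.2% of all genes. Of 9 adenylyl cyclases and G protein alpha subunits 1 passed: Adcy2, a cyclase, read 8.28, 8.31 and 8.28 in ki and 9.51, 9.39 and 9.50 in wt, a difference of -1.18 (standard error 0.073, adjusted p = 0.000188). Of 9 phosphodiesterases, which hydrolyse cyclic nucleotides, 3 were lower: Pde4d (-1.10), Pde1a (-0.94) and Pde10a (-0.79). Pde4b was higher by 0.31 on its brightest probe, while another Pde4b probe was lower by 0.44, so its direction is unsettled. Of 4 Gs-coupled receptors tested, the prostaglandin receptor Ptger2 (-0.81) and the parathyroid hormone receptor Pth1r (-0.64) were lower and the prostacyclin receptor Ptgir (0.37) was higher. Ptgir was just inside the threshold over genes (adjusted p = 0.0498), did not pass over probes (0.0544) and passed in 6 of 18 alternatives, against 17 of 18 for each of the other two. None of the 5 listed other cAMP effectors had a tested probe.

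Downstream, 14.3% of CREB factors and coactivators, 28.6% of CREB target genes and 33.3% of Akap5 binding partners passed, beside 16.2% of all genes. Of 7 CREB factors and coactivators 1 passed: Crem, a cAMP-responsive transcription factor gene, was lower by 1.01 in ki (standard error 0.086, adjusted p = 0.00073). Its other probes differed by -0.87, -0.57 and 0.02. Of 7 tested CREB target genes, Nr4a2 (-1.24) and Per1 (-0.97), a nuclear receptor and a circadian clock gene, were lower and 0 were higher. Nr4a2 was detected on 2 ki arrays and passed in 12 of 17 alternatives. Of 12 binding partners of Akap5, the protein kinase C genes Prkcb (0.43) and Prkca (0.30) were higher, and the calcineurin subunit Ppp3cc (-0.51) and the calcineurin-regulated factor Nfatc4 (-0.60) were lower. Of 18 alternatives, Prkcb passed in 13, Prkca in 6, Ppp3cc in 10 and Nfatc4 in 17. A second Prkca probe differed by -0.68 (adjusted p over probes 0.123), so the direction of that gene is unsettled. None of the 20 pathway genes that passed reached the size of the Akap5 difference.

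**Figure D4:**
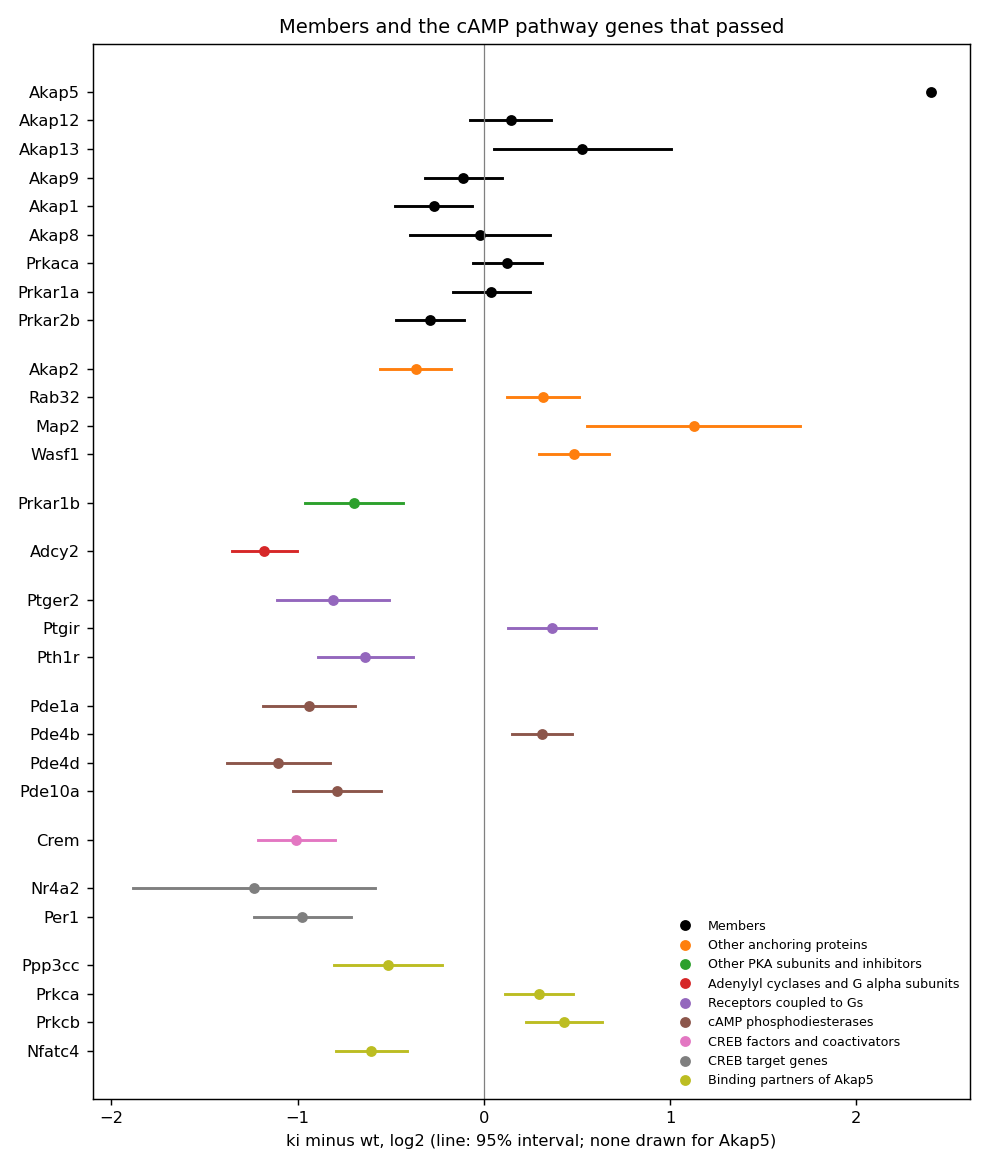
Difference in log2 intensity, ki minus wt, for the 9 tested members (black) and the 20 cAMP pathway genes that passed (coloured by list); lines are 95% intervals, with none drawn for Akap5. Akap5 stands at 2.40, the other members lie near 0, and Adcy2, Pde4d, Crem and Nr4a2 lie below -1.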

How the data were processed

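RNA from lung fibroblasts of ki and wt mice was measured on 6 Illumina arrays, 3 per genotype. The deposited table holds a probe intensity and a detection p-value per array, and the intensities had been background-subtracted but not normalised, per the file headers and the negative values in the table; the software is not given in the sources used here. Probe symbols came from the platform annotation, with 18 probes of several symbols and 10396 without 1 symbol left out. From the deposited intensities, limma 3.58.1 (R 4.3.3) fitted the normexp background with the detection p-values, added an offset of 16, quantile normalised and took log2. Probes detected at p under 0.05 on 3 or more arrays (18249) entered lmFit and eBayes, and 95% intervals use the moderated degrees of freedom. A gene stood by its brightest tested probe; Benjamini-Hochberg adjustment ran over 10412 genes, or over all tested probes for single probes. The procedure was tested on simulated data.

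Members, lists and comparisons were chosen with earlier results of these data known, so counts are read beside those over all genes and support nothing by themselves. Named were every member probe; of each pathway list the passing genes, up to 4 by p, or every one where 5 or fewer passed in a direction; every PKA subunit and inhibitor; 5 nearest genes of Akap5 and 3 of Prkar2b; and up to 3 markers by p per list. The samples are separate mice, and 3 per genotype limits precision. Levels of different probes are not compared. Promoter windows came from RefSeq (GRCm38.p6) and were searched with Python 3.11.15. Alternatives changed background correction, normalisation, offset, detection filter, variance model, probe choice, the replicate block and the arrays left out; eBayes over the genes' brightest probes alone (1879 genes passing) was added after seeing the data.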

Additional observations from a re-analysis of the deposited data

How the results depend on the processing

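The Akap5 difference was 2.40; it was 2.51 without further background correction and with the authors' normalised intensities, 2.18 with median scaling over all probes, 2.19 with an offset of 50, and 2.36 to 2.44 with 1 array left out. Genes passing numbered 1688, 1011 to 1230 with 1 array left out, and 610 without wt array 1 and ki array 2. Median scaling over all probes moved the median gene by -0.22 and gave 361 higher and 1302 lower calls in place of 907 and 781. The other members gave 1 call: 0 without further background correction, with the authors' intensities, without the detection filter and without both arrays, 2 with trend and robust variance, and 0 to 1 with 1 array left out, the 1 being Akap13 without ki array 2. Member probes gave 1 call: 0 under those same 4 settings and with any 1 array left out, and 2 with median scaling over detected probes, offset 50, detection at p under 0.01 on all arrays, or trend and robust variance. Pathway genes passing numbered 20 (7 higher, 13 lower), 8 (1 and 7) without both arrays and 13 to 15 with 1 array left out (13 without wt array 1 or 2); 6 of the 20 (Adcy2, Crem, Pde10a, Pde1a, Pde4d, Per1) passed under every alternative. The marker count, 35, stayed within 1.5 times.

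Same-numbered ki and wt arrays correlated at 0.0039, 0.014 and 0.105 around their group means. Arrays of unlike number correlated at between -0.116 and 0.109, so these values cannot tell whether the numbers pair the samples. With the replicate block 0 members, 0 member probes and 12 pathway genes (2 higher, 10 lower) passed.

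Signs turned under median scaling over all probes for Akap12 (-0.14), Prkaca (-0.15; second probe -0.20), Prkar1a (-0.27), Akap1 probe 2 (-0.095), Prkacb (-0.20), Pkia (-0.049), Pkib (-0.019), Pkig (-0.21) and Rab32 (-0.0030). Under median scaling over detected probes they turned for Akap8 (0.0078), Prkar1a (-0.062) and Pkig (-0.0041). Averaging a gene's probes turned Pde4b (-0.061) and Prkca (-0.19). With 1 array left out they crossed 0 for Akap8 (-0.15 to 0.068), Prkar1a (-0.0067 to 0.11), Pkig (-0.037 to 0.070), Akap1 probe 2 (-0.047 to 0.18), Akap9 probe 2 (-0.27 to 0.0096), Akap13 probe 2 (-0.17 to 0.22) and Prkaca probe 2 (-0.0059 to 0.14), and without both arrays for Akap8 (0.071). The causes were not tested. A slide block was not run, since the headers name no slide. Probes near background, among them those of Prkar2a, give no level.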
